A study of Mus musculus with 8 samples.

Results

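The genes described here are 33 mouse genes of glycolysis and of the transcriptional response to low oxygen, out of 34399 gene symbols measured. They were picked by name: every row of the deposited count tables whose symbol was on a list of glycolytic enzymes, lactate dehydrogenases, glucose and lactate transporters, regulators of glycolytic flux, oxygen sensors with the HIF alpha factors, and other hypoxia-response genes. All 33 were found, each as 1 row in both tables. Their RNA was measured in fibroblasts sorted from the ventricles of mouse hearts under pressure overload. The 8 libraries form 4 groups of 2, and the labels do not say whether the 2 libraries of a group came from separate mice or pools. The p-values below therefore measure only the spread between these libraries, which may be technical.

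All mice carried MerCreMer, a Cre recombinase that acts once tamoxifen is given, and an eGFP reporter in the Rosa locus that Cre switches on. In one experiment MerCreMer sat in the Postn locus, which is active in fibroblasts that respond to injury. The Postn-Cre control libraries (HK3 and HK4) have no floxed gene listed in the labels, and the Smad2/3 DKO libraries (HK15 and HK16) were also Smad2 flox/flox and Smad3 flox/flox. In the other experiment MerCreMer sat in the Tcf21 locus, which marks resident fibroblasts. Its controls (HK6 and HK7) are set against Tgfbr1/2 DKO libraries (HK2 and HK4), flox/flox for both TGF-beta receptor genes. Every group received tamoxifen, injected at 100 mg/kg on 2 days and then given in chow at 40 mg/kg, had transverse aortic constriction (TAC, a surgical narrowing of the aorta) at 8 to 10 weeks of age, and was sampled 4 weeks later by sorting GFP+ cells. Controls therefore share the tamoxifen, the surgery and the Cre with the knockouts, and only GFP+ cells were sorted. The 2 experiments are separate sequencing runs with separate drivers and share no control, so run, driver and targeted genes cannot be told apart between them.

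Glycolysis splits glucose into pyruvate in the cytoplasm, and lactate dehydrogenase turns pyruvate into lactate so that the pathway can go on without oxygen. When oxygen is scarce, the prolyl hydroxylases encoded by Egln1 and Egln3 no longer mark HIF-1 alpha (Hif1a) and HIF-2 alpha (Epas1) for degradation. Between them, these factors raise most glycolytic enzymes, glucose transporters and genes such as Bnip3, Ndrg1, Ddit4 and Adm. Since HIF alpha is set mainly at the protein, the RNA of Hif1a does not measure its activity. Fibroblasts that turn into matrix-producing cells are known to raise glycolysis, and TGF-beta is among the signals that do so. Smad2 and Smad3 are the transcription factors that the receptors Tgfbr1 and Tgfbr2 activate.

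Total counts per library ran from 21477646 to 32594474, and a level is given as CPM, counts per 1000000 of that total. All 12 fibroblast markers were present in all libraries with a summed level of 19390 to 47460 CPM, above the sums of the cardiomyocyte, endothelial, mural, myeloid and erythroid lists. Postn itself stood at 186 to 295 CPM in the Postn-Cre experiment and at 1489 to 3076 CPM in the Tcf21-Cre experiment. Whole-gene counts of the targeted genes showed no loss: edgeR gave log2 fold changes of -0.19 ± 0.19 (SE; adjusted p = 0.747) for Smad2, -0.26 ± 0.23 (0.702) for Smad3, -0.24 ± 0.19 (0.533) for Tgfbr1 and 0.25 ± 0.20 (0.535) for Tgfbr2. Which exons are floxed is not given in the sources used here, so these counts do not check the deletion and the knockout libraries are named by their labels. Xist, the RNA that coats the inactive X in females, stood at 3.65 and 2.18 CPM in the Postn-Cre controls and at 277 and 75.3 CPM in the Smad2/3 DKO libraries, so sex and genotype cannot be told apart in that comparison.

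The members that passed the test in a comparison of knockout with control were Aldoa, Gapdh, Pgk1, Eno1, Ldha and Ddit4, and the stretch upstream of a start site of each is shown because the hypoxia response acts on such promoters through short HIF-binding letters. The sequences are RefSeq promoter windows on GRCm38.p6, 5′ to 3′ along the gene, covering the 250 bases before the start. For Ddit4 the 64 bases next to the start are left out because GENCODE annotates them as exon. Capitals mark the letters ACGTG and GCGTG on either strand (read on the other strand as CACGT and CACGC); a run CACGTG holds ACGTG on both strands and was counted on each. The windows lie at chr7:126799255-126799504 (minus strand, Aldoa), chr6:125165774-125166023 (minus, Gapdh), chrX:106186850-106187099 (plus, Pgk1), chr4:150236458-150236707 (plus, Eno1), chr7:46845554-46845803 (plus, Ldha) and chr10:59951835-59952020 (minus, Ddit4).
Aldoa: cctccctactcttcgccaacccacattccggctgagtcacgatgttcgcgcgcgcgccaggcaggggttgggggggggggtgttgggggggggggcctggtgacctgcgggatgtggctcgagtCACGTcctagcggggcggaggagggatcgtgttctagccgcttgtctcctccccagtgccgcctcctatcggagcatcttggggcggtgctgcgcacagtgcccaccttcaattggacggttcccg
Gapdh: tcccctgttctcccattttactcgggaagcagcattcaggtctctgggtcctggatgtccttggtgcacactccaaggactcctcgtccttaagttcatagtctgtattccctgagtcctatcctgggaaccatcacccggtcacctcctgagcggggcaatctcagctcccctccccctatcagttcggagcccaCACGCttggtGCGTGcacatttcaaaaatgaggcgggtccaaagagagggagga
Pgk1: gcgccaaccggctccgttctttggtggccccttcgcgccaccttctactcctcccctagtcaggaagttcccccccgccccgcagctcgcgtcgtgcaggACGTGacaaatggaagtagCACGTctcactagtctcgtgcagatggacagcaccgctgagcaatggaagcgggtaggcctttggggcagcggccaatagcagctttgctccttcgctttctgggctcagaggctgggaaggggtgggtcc
Eno1: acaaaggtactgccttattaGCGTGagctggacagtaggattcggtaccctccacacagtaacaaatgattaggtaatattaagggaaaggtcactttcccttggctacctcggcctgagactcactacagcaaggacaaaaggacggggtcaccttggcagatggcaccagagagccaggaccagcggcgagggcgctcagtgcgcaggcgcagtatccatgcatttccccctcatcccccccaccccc
Ldha: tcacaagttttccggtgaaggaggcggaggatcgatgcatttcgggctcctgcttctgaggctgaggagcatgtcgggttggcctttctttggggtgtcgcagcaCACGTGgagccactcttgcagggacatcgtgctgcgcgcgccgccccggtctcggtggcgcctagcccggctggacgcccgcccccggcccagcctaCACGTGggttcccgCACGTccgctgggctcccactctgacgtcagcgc
Ddit4: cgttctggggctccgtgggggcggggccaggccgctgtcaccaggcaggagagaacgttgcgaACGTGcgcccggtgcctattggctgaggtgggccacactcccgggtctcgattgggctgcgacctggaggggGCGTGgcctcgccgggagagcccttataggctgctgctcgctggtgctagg

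The Ldha window held 5 matches, all of them ACGTG, at positions -145, -144, -48, -47 and -34 counted from the start. The Pgk1 window held ACGTG at -150 and on the other strand at -131, Gapdh held GCGTG on either strand at -54 and -44, and Ddit4 held ACGTG at -187 and GCGTG at -115. Eno1 and Aldoa had 1 match each in the windows shown. Eno1, Aldoa and Ldha also have other windows. The window with the fewest exonic bases was shown, and among equals the one with the most matches. The other windows held 2 GCGTG matches each for Eno1, 1 GCGTG for Ldha, and 1 and 0 matches for Aldoa. RefSeq windows were matched for 29 of the 33 genes; Slc2a3, Epas1, Bnip3l and Ndrg1 had no entry. Over the 250 bases before each start, 34 of the 41 windows of these genes (82.9%) held ACGTG or GCGTG, against 38.6% of all 32851 windows of that length. For ACGTG alone the shares were 46.3% and 16.6%. Genes of the hypoxia response were listed partly because HIF is known to bind them, so this difference describes the list. A match is a run of letters and not a measured site.

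Levels spanned more than 3 orders of magnitude and are compared between genes only per kilobase of annotated exon (CPM per kb). Gapdh, the enzyme that oxidises glyceraldehyde 3-phosphate, was the most abundant in the Postn-Cre control (153 CPM per kb), Tcf21-Cre control (195) and Tgfbr1/2 DKO (377) libraries, by the mean of 2 libraries. In the Smad2/3 DKO libraries Hk2, the inducible hexokinase that traps glucose in the cell, stood first at 123 CPM per kb, with Gapdh at 112. Aldoc, the brain form of aldolase, at 0.034 to 1.13 CPM over the 8 libraries, was lowest in all 4 groups at 0.0210 to 0.191 CPM per kb, and was filtered out as too low for a test in the Tgfbr1/2 and control comparisons. Among the other roles, per kb and over all libraries, Slc2a1 (GLUT1, the basal glucose transporter) led the transporters at 45.5 and Slc2a3 (GLUT3) was lowest at 1.88. Pfkfb3, which makes the activator of phosphofructokinase, led the flux regulators at 4.21, with Pdk1, a kinase that shuts pyruvate dehydrogenase, lowest at 0.836 (in the Tcf21-Cre controls Pfkfb4 was lowest). Epas1 led the oxygen-sensing group at 54.3 with Egln3 at 3.46, and Ankrd37 was the lowest of the other hypoxia genes at 0.750. Of these Ndrg1 led in the Postn-Cre experiment (36.6 in controls and 33.9 in knockouts) and Bnip3l, a mitophagy receptor gene, in the Tcf21-Cre experiment (26.2 and 21.8).

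**Figure D1:**
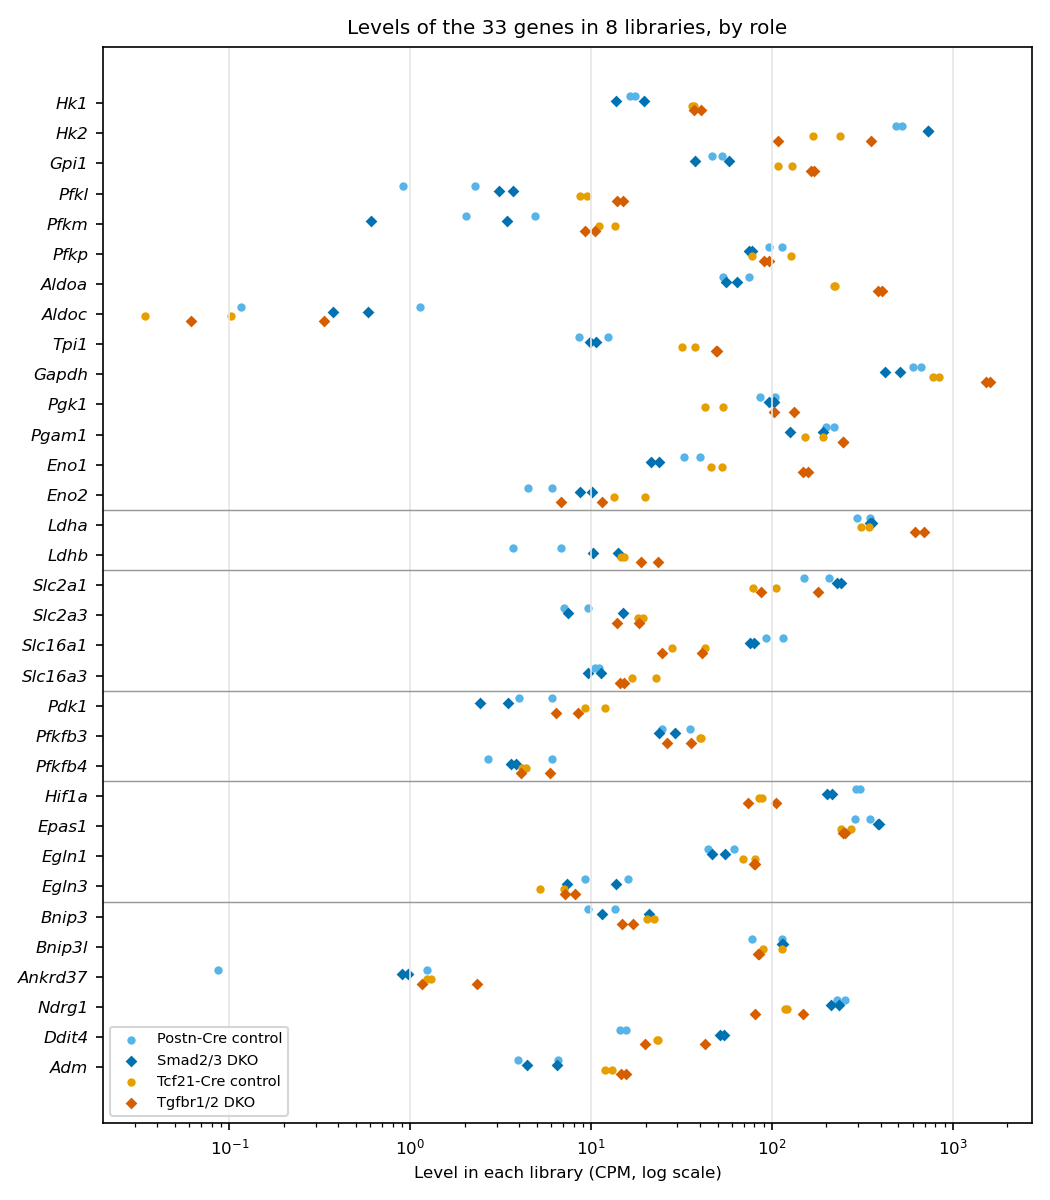
Level of each of the 33 genes in each of the 8 libraries, in CPM on a log axis, with genes ordered by role and 1 point per library. The Tgfbr1/2 DKO points of Gapdh, Aldoa, Eno1 and Ldha lie to the right of all other points of the gene, while the paired points of Hk2, Slc2a1 and Ddit4 in that group lie apart from each other.

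The first comparison asks what changed in Tcf21-lineage fibroblasts without the TGF-beta receptors. The glycolytic enzyme genes Aldoa, Gapdh, Pgk1 and Eno1 and the lactate dehydrogenase gene Ldha were higher in the knockout libraries, while the transporters, flux regulators, oxygen sensors and the other hypoxia-response genes gave no call. With edgeR's quasi-likelihood test, adjusted over all 16658 tested genes at a threshold of 0.05, 5 of the 32 tested members were higher and 0 were lower. Over all tested genes 2.64% were called higher and 1.31% lower, 3.96% in all. At an unadjusted p under 0.05, 10 members were higher and 1 lower, where 20% of all tested genes were at that level in either direction. DESeq2 called the same 5 members and no other. All 5 lay among the 15 members in the most abundant of 5 equal bins of genes, where 5.23% of all genes were called higher and 1.98% lower. The median log2 fold change was 0.31 over the members, against -0.01 over all tested genes, and 0.58 over the 13 tested glycolytic enzymes. In bulk libraries of this kind, more or fewer cells of a type and more or less RNA per cell cannot be told apart.

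Eno1, the main enolase, which makes phosphoenolpyruvate, was at 45.7 and 53.0 CPM in the Tcf21-Cre controls and at 158 and 149 CPM in the knockouts. The groups lay about 3 times apart, with libraries of a group within 1.16-fold of each other. The log2 fold change was 1.71 ± 0.19 (SE; edgeR adjusted p = 0.00148), and the call held in all 14 alternative analyses. Eno2, the neuronal enolase, went the other way, at 19.8 and 13.5 CPM in controls and 11.5 and 6.82 CPM in knockouts, and did not pass (-0.78 ± 0.30, adjusted p = 0.175).

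Pgk1, phosphoglycerate kinase and the first ATP-making step, was at 53.7 and 42.8 CPM in controls and 102 and 132 CPM in knockouts. Both knockout libraries were above both controls. The log2 fold change was 1.38 ± 0.21 (edgeR adjusted p = 0.00877), and the call ended only without control HK7 (0.0545). Gapdh, the step before it, was at 775 and 838 CPM in controls and at 1519 and 1598 CPM in knockouts (1.03 ± 0.22, edgeR adjusted p = 0.0306). Aldoa, the muscle-type aldolase that splits the hexose, was at 220 and 222 CPM in controls and 387 and 407 CPM in knockouts (0.93 ± 0.20, edgeR adjusted p = 0.0291). Both stood close to 2-fold higher, with replicates of either gene within 1.08-fold, yet neither call survived the loss of any 1 of the 4 libraries: the adjusted p was then 0.0673 to 0.183 for Gapdh and 0.0553 to 0.166 for Aldoa.

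Ldha, the lactate dehydrogenase subunit that favours making lactate, was at 343 and 311 CPM in controls and at 613 and 688 CPM in knockouts. Its log2 fold change was 1.08 ± 0.21 (edgeR adjusted p = 0.0221), and the call ended without HK6 (0.0686), HK7 (0.0841) or knockout HK4 (0.131). Ldhb, the heart-type subunit, was at 14.6 and 15.2 CPM in controls and 23.5 and 18.8 CPM in knockouts, a difference that did not pass (0.58 ± 0.23, adjusted p = 0.190). Pkm, the pyruvate kinase that closes the chain and is not among the 33, was at 144 and 147 CPM in controls and 238 and 266 CPM in knockouts. It passed (0.88 ± 0.19, edgeR adjusted p = 0.0349) but not without HK6 (0.124), HK7 (0.0909) or knockout HK4 (0.217), nor without robust estimation (0.0533).

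Most of the remaining steps had groups that did not overlap in CPM without passing the adjusted test. Pgam1, phosphoglycerate mutase, was at 191 and 152 CPM in controls and 245 and 248 CPM in knockouts (0.61 ± 0.19, adjusted p = 0.107). Gpi1, glucose phosphate isomerase, was at 108 and 129 CPM against 170 and 164 CPM (0.57 ± 0.19, 0.136), and Tpi1, triose phosphate isomerase, at 31.9 and 37.4 against 49.5 and 48.8 CPM (0.58 ± 0.20, 0.137). Of the phosphofructokinases, which commit the sugar to glycolysis, liver-type Pfkl was at 8.74 and 9.51 CPM against 14.0 and 14.9 CPM (0.75 ± 0.26, adjusted p = 0.146), while Pfkp, the most abundant of the 3 per kb, overlapped between groups (-0.04 ± 0.22) and Pfkm was at -0.22 ± 0.27. Hk1, the constitutive hexokinase, was at 0.17 ± 0.20. In all, 13 of the 32 members lay entirely higher in the knockouts and 7 entirely lower, where 21.8% and 29.4% of all tested genes did (51.2% in either direction). Among the enzymes it was 9 of 13 higher and 2 lower. The summed level of the 14 enzymes was 1870 and 1791 CPM in controls and 2902 and 3269 CPM in knockouts. Its largest term was Gapdh, at 775 and 838 CPM in controls and 1519 and 1598 CPM in knockouts.

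**Figure D2:**
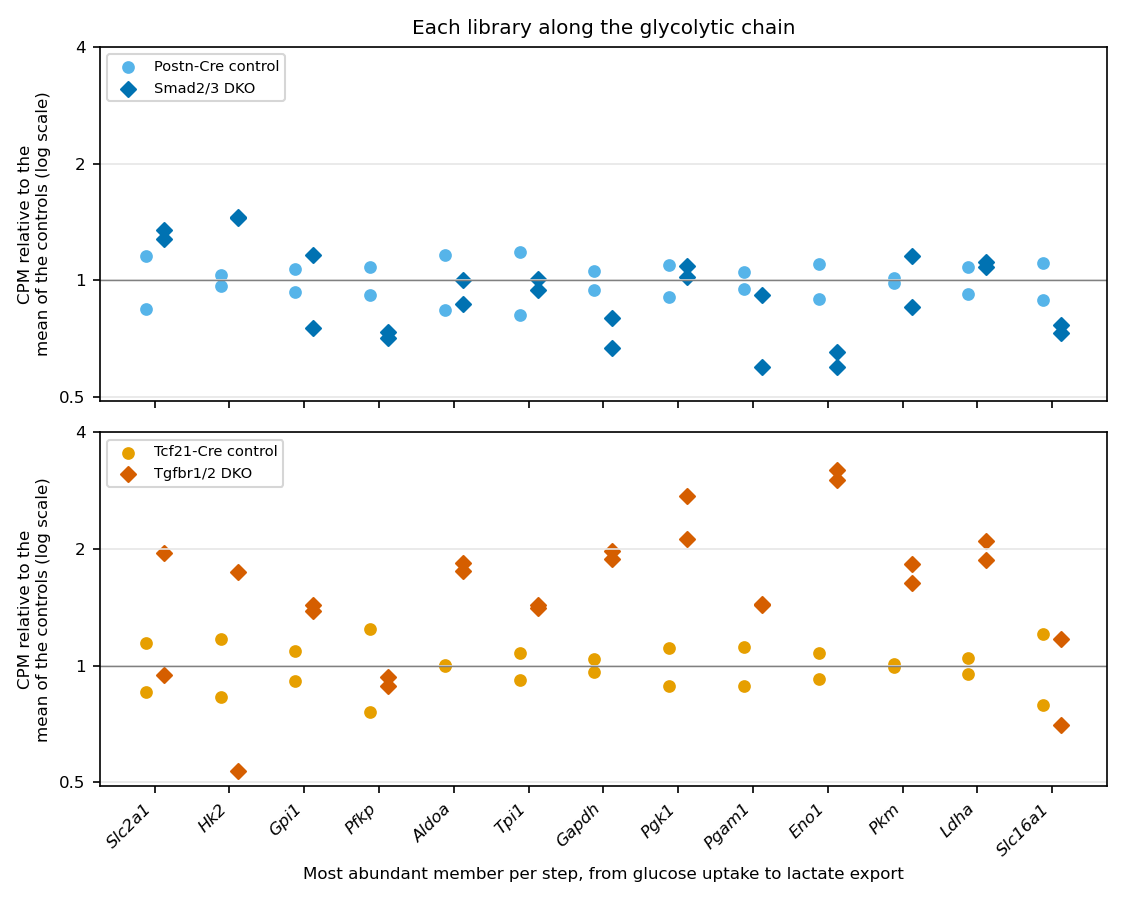
Each library along the pathway from glucose uptake to lactate export, as CPM divided by the mean of the 2 controls of the same experiment (log axis, 1 point per library; the most abundant member per step, plus Pkm). In the lower panel the Tgfbr1/2 DKO points from Aldoa to Ldha all lie above the controls, with Eno1 highest, and the 2 points of Hk2 lie on opposite sides of 1.

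Hk2, Slc2a1, Ddit4, Ndrg1 and Slc16a1 differed between the 2 knockout libraries by more than the other members of at least 10 CPM. Hk2 was at 108 CPM in knockout HK2 and 354 CPM in knockout HK4, on either side of the controls at 238 and 169 CPM, a 3.26-fold difference between replicates (knockout against control 0.31 ± 0.70, adjusted p = 0.861). Slc2a1 was at 86.5 and 180 CPM in the knockouts, with controls at 105 and 78.3 CPM. Its log2 fold change was 0.65 ± 0.39 with all libraries (adjusted p = 0.423), passed without knockout HK2 (1.14, adjusted p = 0.0289), and was -0.06 without knockout HK4. Ddit4 was at 19.8 and 42.5 CPM in knockouts and 23.5 and 23.2 CPM in controls, Ndrg1 at 80.6 and 148 against 121 and 117 CPM, and the lactate transporter gene Slc16a1 (MCT1) at 24.6 and 41.2 against 42.4 and 27.8 CPM. All 5 were higher in HK4 than in HK2 by at least 1.5-fold, and no other of the 26 members whose knockout mean reached 10 CPM differed so far. Of all 8597 genes at that level 9.58% differed by as much between these 2 libraries. In the Tcf21-Cre controls 2 of 28 members did (Pfkp and Slc16a1), against 13.4% of all genes, and in the Postn-Cre controls 1 of 23 (Egln3), against 15.3%. The Smad2/3 DKO pair had as many as the Tgfbr1/2 DKO pair, 5 of 25 (Gpi1, Pgam1, Slc2a3, Egln3 and Bnip3), against 13.2% of all genes, with 4 of them higher in HK15.

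**Figure D3:**
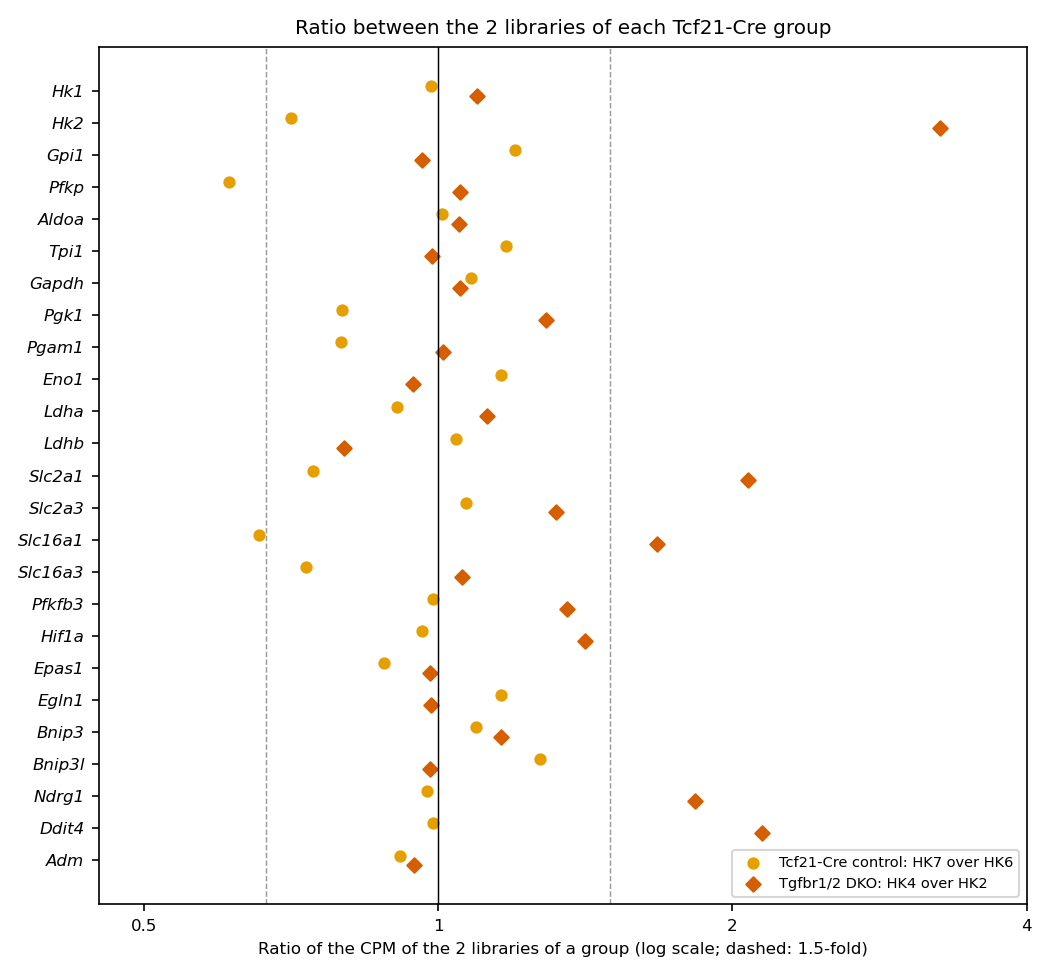
Ratio of the CPM of the 2 libraries within the Tcf21-Cre controls (HK7 over HK6) and within the Tgfbr1/2 DKO group (HK4 over HK2), for the 25 genes whose mean reached 10 CPM in both groups, on a log axis with dashed lines at 1.5-fold. Hk2, Ddit4, Slc2a1, Ndrg1 and Slc16a1 lie to the right of the dashed line in the knockouts, and Aldoa, Gapdh and Eno1 lie near 1.

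Without knockout HK4 the member median fell from 0.31 to -0.04, so this summary rests on that library, whereas Eno1 (1.69, edgeR adjusted p = 0.00171) and Pgk1 (1.11, 0.0388) were called without it. HIF alpha and its oxygen sensors gave 0 calls of 4, also at an unadjusted p under 0.05: Hif1a was at 87.9 and 84.5 CPM in controls and 74.1 and 105 CPM in knockouts (0.15 ± 0.22, adjusted p = 0.768), Epas1 at 274 and 242 against 252 and 247 CPM (0.04 ± 0.19), Egln1 at 0.17 ± 0.19, and Egln3 at 7.06 and 5.24 against 8.19 and 7.15 CPM (0.40 ± 0.30). The 3 flux regulators gave 0 calls, from -0.43 ± 0.32 for Pdk1, at 9.25 and 11.9 CPM in controls and 6.38 and 8.45 CPM in knockouts, to 0.30 ± 0.35 for Pfkfb4, at 4.39 and 4.14 against 5.95 and 4.08 CPM. The 6 other hypoxia genes gave 0 calls as well, from -0.33 ± 0.24 for Bnip3, another mitophagy receptor gene, at 20.3 and 22.2 CPM in controls and 14.7 and 17.1 CPM in knockouts, to 0.57 ± 0.57 for Ankrd37, at 1.23 and 1.30 against 1.17 and 2.34 CPM. Adm, which encodes the vasodilator peptide adrenomedullin, was at 13.1 and 12.0 CPM in controls and 15.6 and 14.7 CPM in knockouts (0.35 ± 0.24).

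Of 36 further genes of glycolysis and pyruvate handling, 32 were tested and Pkm was the only call. Of 40 further hypoxia-response genes, all tested, 3 were called higher and 0 lower. Angptl4, a secreted inhibitor of lipoprotein lipase, was at 15.3 and 19.0 CPM in controls and 141 and 133 CPM in knockouts (3.08 ± 0.21, edgeR adjusted p = 7.29e-05). Pgf, a growth factor of the VEGF family, was at 14.4 and 10.5 against 33.7 and 29.6 CPM (1.43 ± 0.23, 0.00931), and the cytokine gene Mif at 20.1 and 20.8 against 49.8 and 40.2 CPM (1.21 ± 0.20, 0.0119). These 3 calls held in all 14 alternatives.

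Markers of other cells moved along with this comparison. The summed level of 12 myeloid markers was 59.3 and 86.9 CPM in controls and 211 and 225 CPM in knockouts, with 5 of 12 called higher (Csf1r, Emr1, Cd14, Itgam and Cd74) and none at 0. All 12 had positive values (median 1.69), and groups lay apart higher for 11, where 21.8% of all tested genes did. The 7 erythroid markers summed to 26.2 and 43.1 CPM in controls and 135 and 47.2 CPM in knockouts, with no call among the 5 tested. All 5 had positive values (median 1.41), and 3 were higher at an unadjusted p under 0.05. The 12 endothelial markers summed to 468 and 424 against 565 and 542 CPM, with 1 call (Eng). Of these, 10 had positive and 2 negative values (median 0.58), and groups lay apart higher for 8 and lower for 1. The 12 fibroblast markers summed to 39350 and 47460 CPM in controls and 35690 and 35130 CPM in knockouts, with 0 called, 4 positive and 8 negative. Of 10 mural markers 7 were positive and 3 negative, and of 14 cardiomyocyte markers 5 were positive and 9 negative, with 0 called in either list. Of 12 genes induced by tissue dissociation, Hspa1a and Hspa1b were called lower and the sums of 9575 and 15060 against 14500 and 10680 CPM overlapped. What part these take in the enzyme levels was not tested. The median log2 fold change of all genes ran from 0.09 in the shortest of 5 equal bins of exon length to -0.15 in the longest, and the same 5 members were called once that trend was removed.

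The second comparison asks what changed in Postn-lineage fibroblasts without Smad2 and Smad3. Here 1 gene passed: Ddit4, which encodes REDD1, an inhibitor of mTORC1 induced by hypoxia and other stresses. No glycolytic enzyme, transporter or HIF gene was called. Of the 33 members 1 was higher and 0 were lower, where 0.451% and 0.844% of all 15760 tested genes were (1.29% in either direction). At an unadjusted p under 0.05, 3 members were higher and 6 lower, and 13.6% of all tested genes were at that level in either direction. The member median was -0.10, with 0.01 over all genes.

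Ddit4 was at 15.6 and 14.4 CPM in the Postn-Cre controls and at 51.8 and 54.2 CPM in the Smad2/3 DKO libraries. Replicates agreed within 1.09-fold and the groups lay more than 3-fold apart. The log2 fold change was 1.76 ± 0.25 (edgeR adjusted p = 0.00581), and the call held in all 14 alternatives (adjusted p up to 0.0355). Other genes of the hypoxia group stayed near 0, from -0.17 ± 0.15 for Ndrg1, a stress-induced gene at 230 and 253 CPM in controls and 235 and 213 CPM in knockouts, to 0.43 for both Bnip3 (± 0.39) and Ankrd37 (± 1.22). Ankrd37, a small ankyrin-repeat gene, was at 1.23 and 0.087 CPM in controls and 0.901 and 0.978 CPM in knockouts, so the controls lay on both sides of the knockouts.

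Hif1a was the member nearest to a call after Ddit4. It was at 291 and 308 CPM in controls and 200 and 214 CPM in knockouts, without overlap (-0.59 ± 0.15, edgeR adjusted p = 0.0956). DESeq2 (0.0164) and edgeR without the low-count filter (0.0296) called it lower. Epas1 was at 349 and 287 CPM in controls and 390 and 384 CPM in knockouts (0.22 ± 0.16, adjusted p = 0.604), and Egln1 and Egln3 overlapped between groups (-0.13 ± 0.24 and -0.32 ± 0.43).

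Of the enzymes, 10 of 14 had negative and 4 positive log2 fold changes, and none passed. Hk2 was at 521 and 487 CPM in controls and 732 and 731 CPM in knockouts (0.48 ± 0.14, adjusted p = 0.139). Eno1 was at 39.9 and 32.5 against 23.6 and 21.6 CPM (-0.74 ± 0.26, adjusted p = 0.227), and Gapdh at 667 and 598 against 507 and 423 CPM (-0.50 ± 0.15, 0.151). These groups were apart in the direction opposite to the receptor knockout for Eno1 and Gapdh. Pgam1 was at 199 and 220 against 125 and 191 CPM (-0.46 ± 0.21, 0.360), and Pfkp at 96.2 and 114 against 77.1 and 74.7 CPM (-0.53 ± 0.18, 0.223). The extremes were low genes, Pfkl, at 2.27 and 0.914 against 3.09 and 3.68 CPM (1.02 ± 0.71), and Pfkm, at 4.92 and 2.05 against 3.41 and 0.605 CPM (-0.86 ± 0.84). Aldoa (-0.16 ± 0.23), Pgk1 (0.01 ± 0.19) and Ldha (0.08 ± 0.15) differed by less than their SE, and the summed level of the 14 enzymes was 1797 and 1671 CPM in controls and 1736 and 1668 CPM in knockouts. The largest terms of that sum, Gapdh and Hk2, lay lower and higher in the knockouts, respectively.

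Ldhb was at 6.81 and 3.70 CPM in controls and 14.0 and 10.3 CPM in knockouts (1.15 ± 0.45, adjusted p = 0.278), and Eno2 at 6.08 and 4.48 against 10.2 and 8.66 CPM (0.77 ± 0.43, 0.487). Slc16a1 was at 92.7 and 116 against 76.0 and 80.0 CPM (-0.47 ± 0.19, 0.292), and Slc2a1 at 150 and 207 against 228 and 240 CPM (0.34 ± 0.18, 0.459). Slc2a3 was at 7.04 and 9.66 CPM in controls and 14.96 and 7.496 CPM in knockouts, which overlap (0.37 ± 0.43). Groups did not overlap for Ldhb, Eno2, Slc16a1 and Slc2a1, yet the spread of the low ones left wide errors. The 3 flux regulators were all negative, from -0.84 ± 0.56 for Pdk1, at 6.12 and 4.00 CPM in controls and 3.49 and 2.42 CPM in knockouts, to -0.24 ± 0.29 for Pfkfb3, at 35.2 and 24.6 against 29.0 and 23.7 CPM. In all, 9 members lay entirely higher and 7 entirely lower in the knockouts, against 25.4% and 18.9% of all tested genes (44.4% in either direction).

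Of the further glycolytic genes 29 were tested and Pdk4, a kinase that shuts pyruvate dehydrogenase, was called higher, at 7.35 and 6.31 CPM in controls and 21.9 and 21.1 CPM in knockouts (1.59 ± 0.34, edgeR adjusted p = 0.0497). That call ended without any 1 of HK3, HK4, HK15 and HK16 (0.0637 to 0.201) and with the length trend removed (0.0588). Of the 40 further hypoxia genes Edn1, the endothelin-1 gene, was called higher, at 3.88 and 4.09 against 24.3 and 14.4 CPM (2.22 ± 0.40, 0.0236), but not without HK15 (0.209) or in the fit of all libraries (0.0518). Angptl4 was called lower, at 19.0 CPM in both controls and 4.70 and 4.10 CPM in knockouts (-2.17 ± 0.36, edgeR adjusted p = 0.0156), but not without HK15 (0.0696) or HK16 (0.0503). Angptl4 thus fell in this knockout and rose in the other.

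Endothelial markers summed to 544 and 270 CPM in these controls and 264 and 163 CPM in the knockouts, with 0 of 12 called. Of these, 11 had negative and 1 a positive value (median -1.24), and 6 were lower at an unadjusted p under 0.05. Genes induced by dissociation summed to 2927 and 2199 against 4238 and 3722 CPM, with Egr1 called higher. Of these 12 genes, 11 had positive and 1 a negative value (median 0.51). At an unadjusted p under 0.05, 7 were higher, and groups lay apart higher for 9. Over all tested genes 13.6% reached that p in either direction and 25.4% lay apart higher. Myeloid markers summed to 37.1 and 35.1 against 33.7 and 32.2 CPM, with 0 of the 6 tested called and C1qa at 0 in all 4 libraries. Of the mural markers Kcnj8 was called lower, and of the fibroblast markers Col1a1, Col1a2 and Col3a1. Of 12 cardiomyocyte markers tested 0 were called, but 5 were lower at an unadjusted p under 0.05, 10 had negative values (median -1.19), and groups lay apart lower for 9, while the summed level of the list was 674 and 723 CPM in controls and 765 and 712 CPM in knockouts. Their part in the level of Ddit4 was not tested.

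**Figure D4:**
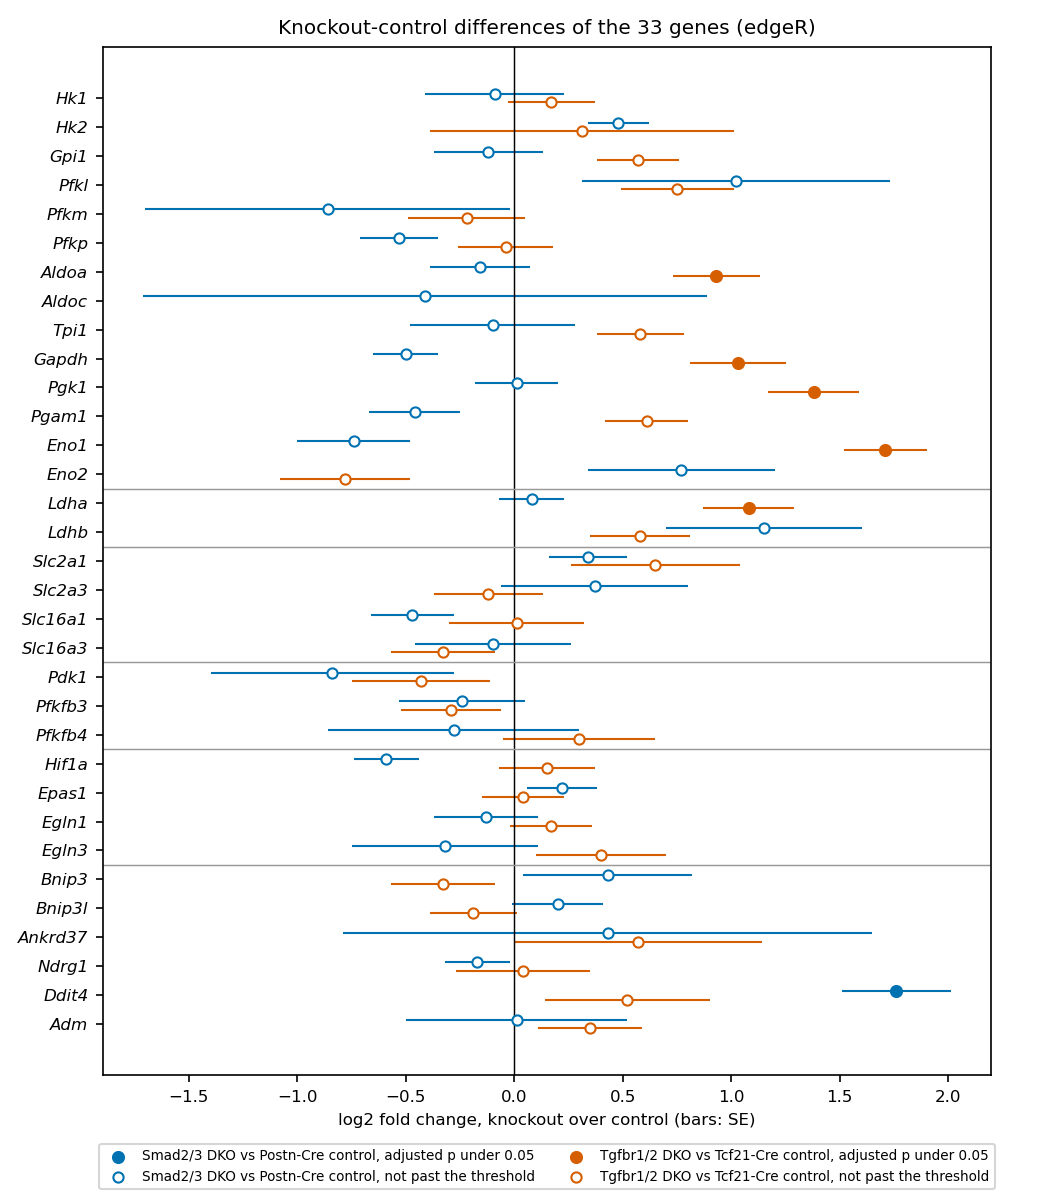
Log2 fold change of knockout over control for each gene in both experiments, with SE bars, ordered by role; filled points passed the edgeR test at an adjusted p under 0.05. The 5 filled points of the Tgfbr1/2 comparison are Aldoa, Gapdh, Pgk1, Eno1 and Ldha, the 1 filled point of the Smad2/3 comparison is Ddit4, and Aldoc was tested only in the latter.

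The difference between both knockout effects was tested in 1 fit of all 8 libraries, as the Smad2/3 effect minus the Tgfbr1/2 effect. Of 33 members 0 were called higher and 3 lower, against 0.664% and 1.17% of all 17770 tested genes (1.83% in either direction). At an unadjusted p under 0.05, 2 members were higher and 7 lower, where 17.4% of all genes were at that level. Eno1 differed by -2.46 ± 0.28 (edgeR adjusted p = 0.00227; called in all 17 alternatives), Gapdh by -1.54 ± 0.27 (0.0192) and Pgk1 by -1.37 ± 0.30 (0.0439). The call of Gapdh ended without Postn-Cre control HK3 (0.0571), HK16 (0.0843) or Tgfbr1/2 DKO HK4 (0.0503). The call of Pgk1 ended without robust estimation (0.0511) and without 6 of the 8 libraries in turn, all but Postn-Cre control HK4 and Tgfbr1/2 DKO HK2 (up to 0.170). Pgk1 lies on the X chromosome. Xist stood at 1.07 to 1.75 CPM in the Tcf21-Cre experiment, so its levels differ between the Smad2/3 DKO libraries and the rest. The log2 fold change of Pgk1 was 0.01 ± 0.19 in the Smad2/3 comparison and 1.38 ± 0.21 in the Tgfbr1/2 comparison. What part sex takes was not tested.

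Aldoa (-1.09 ± 0.28, adjusted p = 0.0790), Ldha (-1.01 ± 0.25, 0.0700) and Pgam1 (-1.08 ± 0.30, 0.0967) did not pass in edgeR and did in DESeq2 and in edgeR without the low-count filter. For Aldoa and Ldha it is therefore not shown by the main test that the receptor and Smad knockouts differ. Ddit4 differed by 1.23 ± 0.47 (adjusted p = 0.208) and Hif1a by -0.75 ± 0.29 (0.216), so the Ddit4 call in the Smad2/3 comparison is not shown to be particular to it. Angptl4 differed by -5.25 ± 0.31 (edgeR adjusted p = 3.13e-05). Gapdh, Pgam1 and Eno1 were the 3 members whose groups lay apart in opposite directions, lower in the Smad2/3 and higher in the Tgfbr1/2 knockouts, which 4.95% of the genes tested in both did.

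Isoform shares restate the same counts in a form that does not depend on library scaling. Each is a share of the counts of the 2 genes named, without near copies. The near copies of Eno1 took counts equal to 34.0% to 46.7% of those of Eno1, and shares with copies added were not computed. Eno2 made up 13.2% and 12.1% of the counts of Eno1 and Eno2 together in the Postn-Cre controls. In the Smad2/3 DKO libraries it made up 30.1% and 28.7%. In the Tcf21-Cre experiment it made up 30.2% and 20.2% in controls and 6.79% and 4.38% in Tgfbr1/2 DKO libraries. The 95% Wilson intervals, which cover counting error only, were 11.4 to 15.3% at the first of these and 3.83 to 5.01% at the last. The shares were thus higher in one knockout and lower in the other, without overlap in either experiment. Of all tested genes, 44.4% (Smad2/3) and 51.2% (Tgfbr1/2) also did not overlap in CPM, and no such background was computed for shares. Neither Eno1 (edgeR adjusted p = 0.227) nor Eno2 (0.487) passed in the Smad2/3 comparison. Shares of other families were also computed and are not shown. With 2 libraries against 2 no permutation test can pass, so no p is given.

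Hif1a made up 45.5% and 51.7% of the counts of Hif1a and Epas1 together in the Postn-Cre controls, and 33.9% and 35.8% in the Smad2/3 DKO libraries. It made up 24.3% and 25.9% in the Tcf21-Cre controls and 22.7% and 29.8% in the Tgfbr1/2 DKO libraries, where the groups overlap. Hk1 took 3.25% and 3.27% of the counts of Hk1 and Hk2 together in Postn-Cre controls, and 13.4% and 17.7% in Tcf21-Cre controls. In Tgfbr1/2 DKO HK2 and HK4 it took 25.5% and 10.3%, set by their unlike levels of Hk2. Slc16a3 (MCT4), the lactate exporter of glycolytic cells, took 10.2% and 8.76% of the counts of Slc16a1 and Slc16a3 together in Postn-Cre controls. In Tcf21-Cre controls it took 35.1% and 37.6%.

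**Figure D5:**
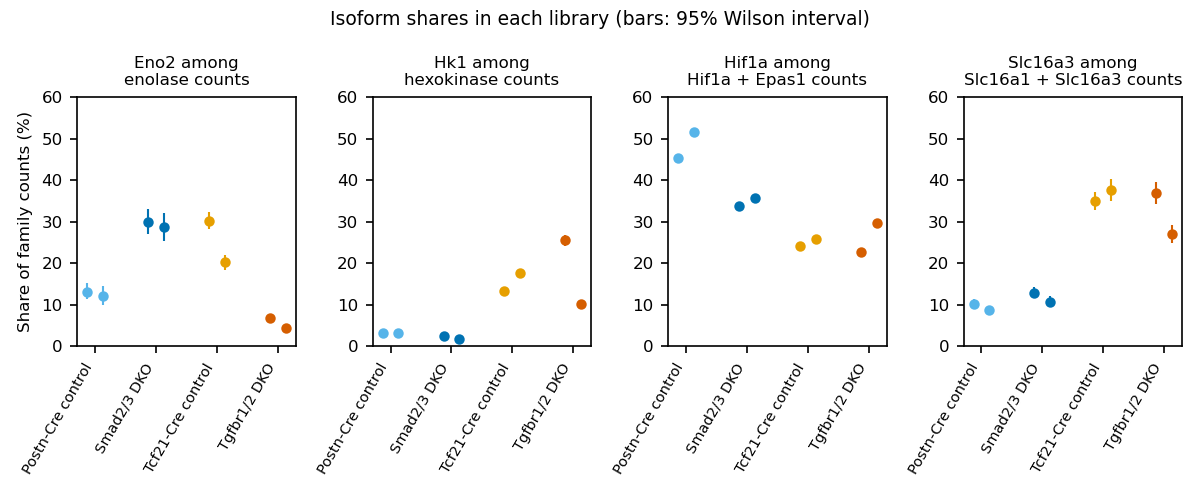
Share of the counts of a pair of genes taken by Eno2 (with Eno1), Hk1 (with Hk2), Hif1a (with Epas1) and Slc16a3 (with Slc16a1). Values are percent, with 1 point per library, and bars are 95% Wilson intervals. The Eno2 share is above its controls in the Smad2/3 DKO libraries and below them in the Tgfbr1/2 DKO libraries, and the Hif1a share is highest in the Postn-Cre controls at 45.5% and 51.7%.

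The controls of both experiments also differed from each other, in a comparison where driver and sequencing run change together and cannot be told apart. Of 32 tested members 15 were called, 6 higher and 9 lower in the Tcf21-Cre controls, against 17.3% of all genes called higher and 16.6% lower (33.9% in all). At an unadjusted p under 0.05, 10 members were higher and 9 lower, where 45.2% of all genes were at that level. In CPM 19 members lay entirely higher and 9 entirely lower, against 47.8% and 23.7% of all genes (71.5% in either direction). Higher were Hk1, Gpi1, Pfkl, Aldoa, Tpi1 and Eno2, from 0.77 ± 0.23 for Hk1 to 2.17 ± 0.54 for Pfkl. Lower were Hif1a (-2.13 ± 0.18, edgeR adjusted p = 0.00120), Slc16a1 (-1.91 ± 0.24), Hk2 (-1.65 ± 0.21), Egln3 (-1.38 ± 0.40), Ndrg1 (-1.36 ± 0.17), Pgk1 (-1.31 ± 0.21), Slc2a1 (-1.30 ± 0.23), Epas1 (-0.64 ± 0.19) and Pgam1 (-0.63 ± 0.18). Hif1a, at 291 and 308 CPM in Postn-Cre and 87.9 and 84.5 CPM in Tcf21-Cre controls, had the lowest value of the 9.

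The called members were at these levels in the Postn-Cre controls and then the Tcf21-Cre controls: Hk1 was at 17.5 and 16.5 CPM against 37.0 and 36.3 CPM. Gpi1 was at 53.2 and 46.4 CPM against 108 and 129 CPM, and Aldoa at 74.4 and 53.6 against 220 and 222 CPM. Tpi1 was at 12.5 and 8.57 CPM against 31.9 and 37.4 CPM, and Pfkl at 2.27 and 0.914 against 8.74 and 9.51 CPM. The Tcf21-Cre libraries were the higher pair for all of these, without overlap. Pgk1 was at 103 and 85.7 CPM against 53.7 and 42.8 CPM, and Egln3, an oxygen-sensing hydroxylase gene that is itself induced by hypoxia, at 15.9 and 9.22 against 7.06 and 5.24 CPM. These lay lower in the Tcf21-Cre libraries, also without overlap.

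The set that was lower thus held Hif1a, Epas1, Egln3, Ndrg1, the transporter genes Slc2a1 and Slc16a1, and the enzyme genes Hk2, Pgk1 and Pgam1. The set called higher held genes of the glycolytic enzyme list only. Outside that list, Ldhb (1.16 ± 0.40, edgeR adjusted p = 0.0579), Slc2a3 (0.83 ± 0.31, 0.0792) and Adm (0.93 ± 0.38, 0.0995) missed the threshold with groups apart higher. The count called higher, 6 of 32 members, is near the 17.3% of all genes called higher. Of the 13 tested enzymes 6 were called higher and 3 lower. Of the 15 calls, 7 held in all 14 alternatives: Hk2, Aldoa, Pgk1, Slc2a1, Slc16a1, Hif1a and Ndrg1. All genes shifted with transcript length here, from a median of 0.34 in the shortest of the 5 length bins to -0.31 in the longest. With that trend removed 14 members were called, 13 of them among the 15, Tpi1 (0.0516) and Eno2 (0.0570) lost the call and Ldha gained it (-0.71, 0.0212), and the share of all calls that were higher went from 51.0% to 40.4%. Abundant genes as a whole were lower here: in the most abundant of 5 bins 47.8% of all genes were called lower and 13.8% higher, with a median of -0.55, and 8 of the 9 members called lower (all but Egln3) were among the 15 members of that bin. The count of members called lower is therefore near that background. Marker lists differed too: 10 of 12 dissociation-induced genes were called higher in the Tcf21-Cre controls. Calls in either direction numbered 5 of 12 fibroblast markers, 4 of 12 endothelial, 3 of 10 mural, 1 of 14 cardiomyocyte, 1 of 11 myeloid (Lyz2) and 0 of 6 erythroid markers tested. Their part in the members' levels was not tested.

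Near-identical copies limit what the counts of some members mean, since how reads matching several genes were assigned is not given in the sources used here. Gapdh has 88 entries that match it at 90% identity or more, which took counts equal to 31.7% to 42.0% of those of Gapdh. Eno1 has 3, mostly Gm5506, with 34.0% to 46.7%. With the copies added to the gene, the members called were the same in all 4 comparisons. The copies of other members took at most 1.13% of the gene's count, except those of Bnip3 at up to 10.6%. The authors' deposited table of log2 fold changes had the same sign as the fits for 29 of 33 members in the Smad2/3 comparison and listed the other 4 (Pfkl, Aldoc, Pdk1 and Ankrd37) at 0, which has no sign. In the Tgfbr1/2 comparison the sign was the same for 28 of 32 and opposite for Hk2, Slc16a1, Epas1 and Ndrg1, whose values in the authors' deposited table lay between -0.126 and -0.033.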

How the data were processed

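RNA of GFP+ sorted cells was amplified with NuGEN Ovation v2, tagged with Nextera XT and sequenced on a HiSeq2500, per the labels' protocols. The values the authors deposited are expected counts for each Ensembl identifier, and mm10 is the build named in the submitters' processing notes. Aligner, counter and strand setting were not given in the sources used here, so antisense and overlapping genes cannot be separated by strand. The deposited tables also hold a log2 fold change per gene by the authors, which was used only for its sign.

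Expected counts (12.5% of the values above 0 were whole, within 1e-08) were rounded, and the 38087 entries summed to 34399 symbols. CPM is the count over the library total times 1000000; at these totals 3 counts equal 0.0920 to 0.140 CPM, for counting error only. Only the 4 libraries compared entered a fit, by edgeR 4.0.16 in R 4.3.3 (all 8 for the difference): TMM, filterByExpr, robust quasi-likelihood F test, two-sided, Benjamini-Hochberg over all tested genes, threshold 0.05. The SE comes from the F statistic. All adjusted p-values named for a gene come from these fits unless another tool is named. The fits were also run on counts simulated from the means and spreads of these same libraries. The only pass condition was that median fold changes lay near the planted ones. No condition was set on false calls or missed changes. "Groups apart" or "did not overlap" refers to CPM, while fold changes use TMM scaling, and these can differ, as for Gapdh between the controls (667 and 598 against 775 and 838 CPM, log2 fold change 0.02). Exon lengths and positions are from GENCODE vM21 (GRCm38), with 95.3% of identifiers matched. Exon length is the union over transcripts, so CPM per kb is a lower estimate for genes with many isoforms.

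The members, the 36 further glycolysis genes, the 40 further hypoxia genes and the marker lists were chosen with earlier results of these data known. Per-library values of the comparison concerned were given for members past the threshold or, for the knockouts and their difference, at an unadjusted p under 0.05, for the highest and lowest per kb of a role and for the largest rise or fall of a role, and of the further genes for those past the threshold in a knockout comparison and Pkm. Alternatives were RLE scaling, no low-count filter, DESeq2 1.42.0, no robust estimation, a fit of all 8 libraries, each library left out (the lone library of a group is then assumed to vary like the others), single entries per symbol, TMM without the pathway genes and named copies added. Removing a length trend (loess span 0.5) and adding near copies were chosen after seeing the data. Run and driver are confounded with the experiment, so no batch term could be fitted. Near copies are GENCODE transcripts aligned at 90% identity or more over at least 200 bases.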

Additional observations from a re-analysis of the deposited data

Results flagged for a closer look

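Of the genes described, 4 had knockout effects that differed between the experiments in the test of the difference itself (edgeR, all 8 libraries). Eno1 differed by -2.46 on the log2 scale, Gapdh by -1.54, Pgk1 by -1.37 and Angptl4 by -5.25, each lower in the Smad2/3 than in the Tgfbr1/2 knockouts. The calls of Gapdh and Pgk1 ended in some of the alternative analyses, that of Pgk1 in more of them. Pgk1 also lies on the X chromosome, and Xist levels differed between the Smad2/3 DKO libraries and the rest. The log2 fold change of Pgk1 was 0.01 ± 0.19 in the Smad2/3 comparison and 1.38 ± 0.21 in the Tgfbr1/2 comparison. The targeted genes, the driver and the run all differ between the experiments and cannot be told apart here.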

How the results depend on the processing

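With 2 libraries per group, single libraries set much of what is called. Genes called without the low-count filter and by DESeq2 were 819 and 744 (Smad2/3), 1233 and 1129 (Tgfbr1/2) and 1194 and 1123 (difference), against 204, 659 and 326; the fit of all 8 libraries called 299 for Tgfbr1/2. These settings called 1 member lower in Smad2/3 (both) and, for the difference, 6 lower (both) and 1 higher (no filter). With each library left out, genes called ran from 105 to 297 (Smad2/3), 271 to 484 (Tgfbr1/2), 89 to 302 (difference) and 3177 to 6801 (controls). Members called higher ran from 1 to 4 for Tgfbr1/2 and 1 to 9 for the controls, and members called lower from 1 to 4 for the difference. Member medians ran from -0.22 to 0.06 (Smad2/3), -0.04 to 0.42 (Tgfbr1/2), -0.63 to -0.14 (difference) and -0.04 to 0.37 (controls; -0.05 with the length trend removed). Per kb, the Eno2 share was 14.2% in Postn-Cre controls and 32.2% in Smad2/3 DKO libraries, against 12.7% and 29.4% of counts. Slc2a1 in Tgfbr1/2 was -0.06 without knockout HK4 and 1.14 without knockout HK2. Ankrd37 between the controls was -0.04 without the length trend, -0.29 without Postn-Cre HK4 and 3.52 without Postn-Cre HK3. Without Postn-Cre HK3, the share of Smad2/3 calls that were higher was 46.8%, against 34.8%. The causes were not tested. No paired analysis was possible: no HK number is shared between knockouts and their controls or between both control groups. What the HK numbers name is not given in the labels. HK4 occurs in both runs, as a Postn-Cre control and as a Tgfbr1/2 DKO library, and whether these are related is not given. Genes under 1 CPM, such as Aldoc, give no usable fold at this depth.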
